A study of Coprinopsis cinerea with 6 samples.

Results

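The 160 gene models described here, of 13615 in the deposited table, were steady between the libraries of SRR1 mutant gills and uneven between the libraries of wild type gills, with similar means in both groups. They were chosen from read counts expressed as CPM, the share of a library's total count that a gene takes, in counts per 1000000, with no other scaling. A member had at least 10 CPM in its highest wild type library. Its highest wild type library was at least 3 times its lowest, with 0.5 CPM added to both, and the same quotient over the SRR1 mutant libraries was at most 1.6. The ratio of the wild type mean to the mutant mean lay between 0.5 and 2. These values chose the members, so the levels, spreads and group means below are a description. Which wild type replicate is high or low, the coding length and the position of a gene were not used by the rule. The limit on the ratio of the means bears unequally on high and low libraries.

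Gills are the plates under the cap of a mushroom, lined with basidia, the cells that undergo meiosis and bear the spores. In Coprinopsis cinerea, an ink cap on which mushroom development is commonly studied, the basidia of a cap pass through meiosis in near synchrony and the mature cap digests itself. SRR1 is a transcription factor that the title of the series connects with the shaping of spores.

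RNA from gills of young fruiting bodies was sequenced in 2 groups, the SRR1 mutant (n = 3 libraries) and the wild type (n = 3 libraries). The kind of mutation is not in the labels, nor whether the strain is 1 isolate or whether the libraries came from separate fruiting bodies or cultures, so the spread between libraries may be partly technical. The sample descriptions carry the unexplained code 2L in the SRR1 mutant and 2g in the wild type. A difference in preparation between the groups cannot be told apart from genotype, for the spread within each group as well as for its level. The libraries held 18333896 to 20014106 counted read pairs in the SRR1 mutant and 18816585 to 24373334 in the wild type, so 1 CPM stands for 18.3 to 24.4 pairs. None of the 13615 identifiers could be matched to the reference gene table. SRR1 itself, markers of the gill and the products of the members were therefore not looked up, and 4 members are named by identifier and the others by scaffold and position. No genome build is named in these sources, so positions are those of the deposited table. Over the tested genes, the coefficient of biological variation from edgeR was 0.154 within the SRR1 mutant and 0.292 within the wild type.

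Of the 8536 gene models that reached 10 CPM in a wild type library, 289 had a wild type quotient of at least 3. The mutant quotient of 75 of these was above 1.6. Another 54 failed only the ratio of the means, 46 with the lower mean in the SRR1 mutant and 8 with the higher mean there. The 160 members remained, 1.87% of the 8536. With the 2 groups exchanged in every step, 42 of 8579 models had a mutant quotient of at least 3, and 6 models were uneven in the SRR1 mutant, steady in the wild type and similar in mean. Among the members the median quotient was 1.23 over the SRR1 mutant libraries and 3.34 over the wild type libraries. Over the 8536 models the medians were 1.21 in the SRR1 mutant and 1.498 in the wild type. Most members lay close to the lower limit of the wild type quotient: 40 had a quotient of at least 4, 14 of at least 6 and 4 of at least 10.

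**Figure D1:**
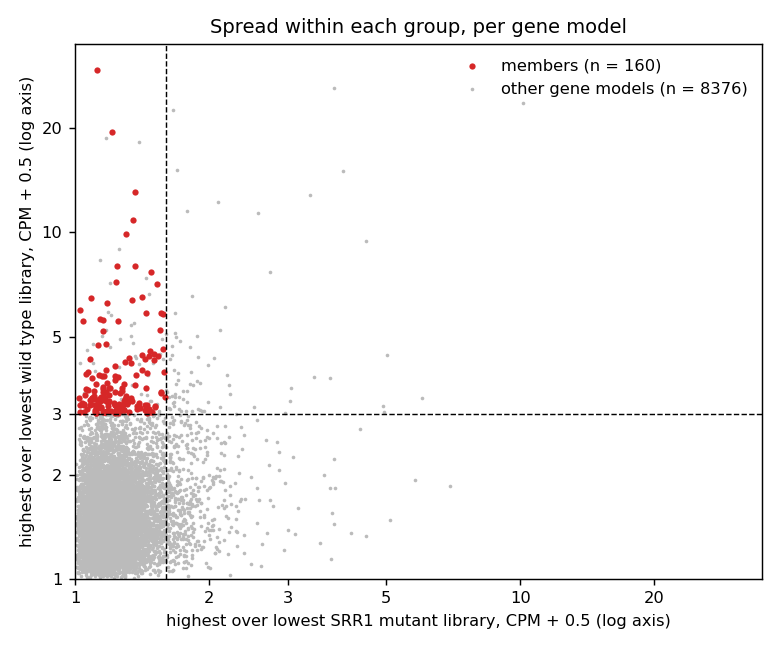
Quotient of the highest over the lowest library within the SRR1 mutant (x axis) and within the wild type (y axis), CPM plus 0.5, both on log axes, for 8536 gene models at 10 CPM or more in a wild type library. Red points are the 160 members, grey points the other models, and dashed lines mark the limits of 1.6 and 3; grey points inside the same corner failed the ratio of the means.

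Wild type replicates 2 and 3 were the extremes in most members. Replicate 3 was highest and replicate 2 lowest in 73 members, and replicate 2 was highest and replicate 3 lowest in 63. Replicate 1 was the highest in 15 members and the lowest in 9. Over the 8536 models, replicate 1 was highest in 27.7% and lowest in 21.1%. For each member the library that stood apart was taken as the highest or lowest one, whichever was farther from the middle library on the log2 scale. Replicate 2 was the low library in 72 members and the high library in 38. Replicate 3 was the low library in 33 members and the high library in 15. Replicate 1 was the low library in 2 members and the high library in none. Replicate 2 thus stood apart as low in 45% of the members and as high in 23.8%, and over the 8536 models in 18.03% and 24.0%. Replicate 3 stood apart as low in 20.6% of the members and as high in 9.38%, and over the models in 25.05% and 13.2%. It was the lowest library in 41.9% of the members and 46.8% of the models. A very high library raises the wild type mean more than a very low library reduces it. The limit on the ratio of the means therefore excludes high libraries more readily. The split of the members into low and high was partly set by the rule, and nothing is drawn from it. The set depends on these libraries: the rule applied without wild type replicate 2 found 10 genes, and without wild type replicate 3 it found 31, all of them members in both cases. Without wild type replicate 1 it found 136, again all members. Leaving out a wild type library can only lower the wild type maximum and quotient of a gene. A gene found this way had therefore already met those limits, and only its ratio of means could have kept it out of the set.

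**Figure D2:**
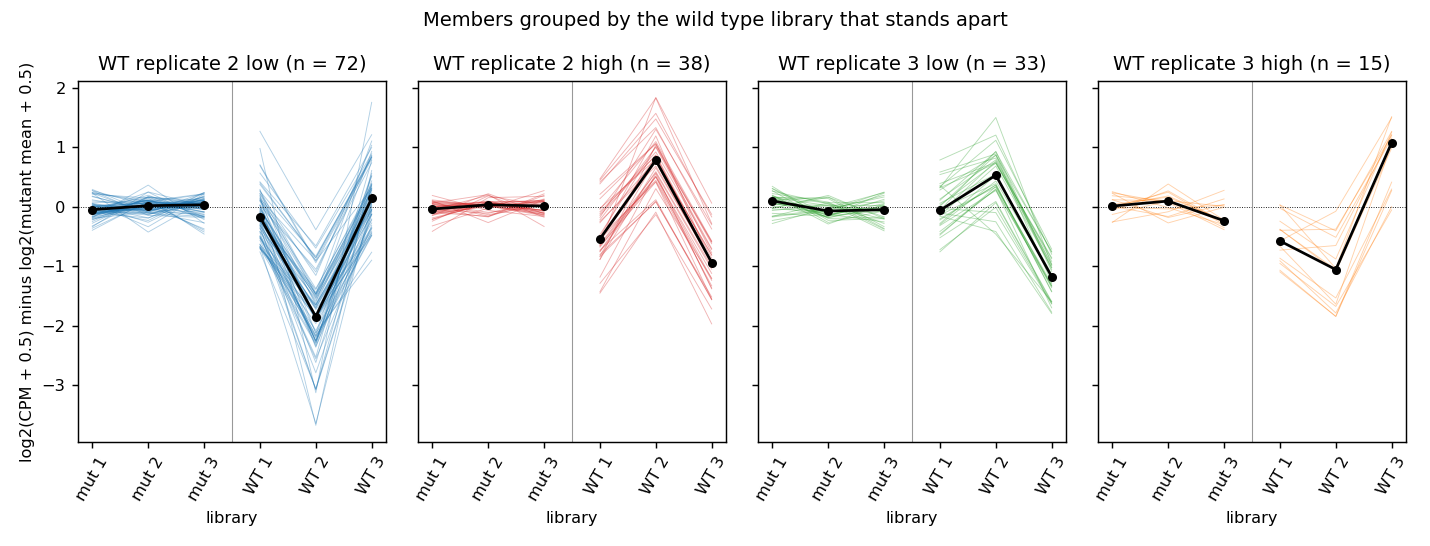
Level of each member in the 6 libraries (mut, SRR1 mutant; WT, wild type) as log2(CPM + 0.5) minus log2 of the mutant mean plus 0.5, with 1 thin line per member and the median as black points, in 4 panels by the wild type library that stands apart. The median of wild type replicate 2 lies 1.84 below the mutant mean in the 72 members where it is low and 0.79 above it in the 38 where it is high; the 2 members with replicate 1 low are not drawn.

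The 72 members in which wild type replicate 2 was low were mostly short genes. The largest spread of all members was that of CopciAB_417513.T0, a single-exon gene of 357 coding bp on scaffold_1 (plus strand, 451786 to 452142). It had 202, 181 and 198 CPM in SRR1 mutant replicates 1, 2 and 3 and 384, 21.8 and 657 CPM in wild type replicates 1, 2 and 3. The mutant libraries lay between wild type replicate 2 and the other 2 wild type libraries. CopciAB_1000295.T0, a single-exon gene of 273 coding bp on scaffold_2 (minus strand, 74634 to 74906), had 10.4, 10.5 and 12.7 CPM in the SRR1 mutant and 13.0, 0.421 and 17.4 CPM in the wild type. Its wild type replicate 2 value rests on 8 read pairs, the lowest count of any member in any library, with an exact 95% Poisson interval of 0.182 to 0.829 CPM that covers counting error only. The 3 mutant values and the other 2 wild type values lay well above that interval.

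Another gene of this kind, with 1 coding exon of 111 bp on scaffold_1 from 2864713 to 2864823, had 15.9, 12.9 and 17.8 CPM in the SRR1 mutant and 9.64, 0.789 and 16.4 CPM in the wild type. The member with the highest CPM of the whole set was also among the 72. It has 2 coding exons and 282 coding bp on scaffold_7 from 2368169 to 2368508 and had 3906, 2979 and 4366 CPM in the SRR1 mutant and 3516, 1134 and 2832 CPM in the wild type. Its mean was 3750 ± 707 CPM in the SRR1 mutant and 2494 ± 1226 CPM in the wild type (SD, n = 3 each). Over the 72 members, the median level in wild type replicate 2 lay 1.84 below the mutant mean on the log2 scale, while replicates 1 and 3 lay 0.17 below and 0.15 above it. The mutant mean was nearest to wild type replicate 1 in 40 of the 72, to replicate 3 in 31 and to replicate 2 in 1, and it lay above every wild type library in 23. The rule keeps the group means within 2-fold of each other, so with replicate 2 as the low library these places were largely set by the choice of members.

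The 38 members in which wild type replicate 2 was high were longer, with a median coding length of 1752 bp. The largest spreads among them nevertheless came from short, single-exon genes. The gene on scaffold_2 from 2052831 to 2053055 (225 coding bp) had 81.8, 89.9 and 94.7 CPM in the SRR1 mutant and 56.7, 319 and 92.9 CPM in the wild type. On scaffold_4 from 2529633 to 2530070, a gene of 438 coding bp had 70.4, 105 and 106 CPM in the SRR1 mutant and 65.9, 215 and 47.8 CPM in the wild type. In both genes 2 of the 3 wild type libraries lay within or below the mutant range and 1 lay far above it. A gene of 138 coding bp on scaffold_2 from 3786440 to 3786577 had 2.89, 2.998 and 2.75 CPM in the SRR1 mutant and 4.18, 11.5 and 2.29 CPM in the wild type. The highest mutant mean among the 38 belonged to a gene that has 2 coding exons and 1665 coding bp on scaffold_2 from 8544 to 10273, with 537, 593 and 409 CPM in the SRR1 mutant and 499, 1100 and 345 CPM in the wild type. Over the 38 members, the medians relative to the mutant mean were -0.54, 0.79 and -0.93 in wild type replicates 1, 2 and 3 (log2 scale), so the mutant level lay between the high library and the other 2. With similar group means required and replicate 2 as the high library, this place was largely set by the choice of members.

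In 33 members wild type replicate 3 was the low library, and their median coding length was 1470 bp. The largest spread belonged to a gene with 5 coding exons and 243 coding bp on scaffold_6 from 155956 to 156470, with 5.18, 4.05 and 4.71 CPM in the SRR1 mutant and 5.95, 14.1 and 2.13 CPM in the wild type. A single-exon gene of 600 bp on scaffold_11 from 603076 to 603675 had 8.84, 9.19 and 6.37 CPM in the SRR1 mutant and 8.21, 15.3 and 3.08 CPM in the wild type. All 3 mutant libraries of both genes lay inside the wild type range, close to replicate 1. The gene on scaffold_13 from 464203 to 466144 (1734 coding bp) had 11.5, 7.99 and 8.13 CPM in the SRR1 mutant and 16.3, 21.9 and 5.10 CPM in the wild type. The highest mutant mean among the 33 was that of a gene with 2661 coding bp on scaffold_5 from 484231 to 487047, which had 292, 282 and 370 CPM in the SRR1 mutant and 321, 525 and 161 CPM in the wild type. Relative to the mutant mean, the medians of the 33 members were -0.06, 0.53 and -1.17 in wild type replicates 1, 2 and 3 on the log2 scale. The mutant mean was nearest to wild type replicate 1 in 26 of them and nearest to replicate 3 in none. With similar group means required and replicate 3 as the low library, these places were largely set by the choice of members.

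Wild type replicate 3 was the high library in 15 members, with a median coding length of 720 bp. CopciAB_438890.T0, a gene of 264 coding bp in 4 exons on scaffold_9 (plus strand, 1106081 to 1106520), had 9.16, 6.35 and 7.72 CPM in the SRR1 mutant and 4.72, 2.16 and 16.7 CPM in the wild type. CopciAB_444907.T0, a gene of 1020 coding bp in 21 exons on scaffold_10 (minus strand, 2004997 to 2007135), had 17.9, 22.7 and 15.5 CPM in the SRR1 mutant and 19.2, 8.89 and 54.6 CPM in the wild type. In both genes wild type replicate 3 lay above all other libraries of both groups. A gene of 336 coding bp on scaffold_1 from 1313297 to 1313759 had 10.96, 12.9 and 12.1 CPM in the SRR1 mutant and 5.37, 2.999 and 16.2 CPM in the wild type. The highest mutant mean among the 15 was that of a gene with 16 coding exons and 1824 coding bp on scaffold_10 from 884212 to 886946, which had 84.6, 70.1 and 57.4 CPM in the SRR1 mutant and 59.8, 38.4 and 170 CPM in the wild type. Replicate 1 was the low library in 2 genes. The gene on scaffold_12 from 1030220 to 1030877 (417 coding bp) had 87.5, 94.6 and 126 CPM in the SRR1 mutant and 53.2, 161 and 231 CPM in the wild type. The other, on scaffold_3 from 209790 to 210065 (276 coding bp), had 19.7, 19.9 and 14.9 CPM in the SRR1 mutant and 11.5, 35.7 and 25.2 CPM in the wild type. Both of these short genes had all mutant libraries above wild type replicate 1 and below the other 2 wild type libraries.

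The members included many of the shortest genes. All lengths in the table are multiples of 3 and so exclude untranslated regions. The median coding length was 790.5 bp for the 160 members and 1347 bp for the 8536 models, and 39.4% of the members and 14.6% of the models had at most 600 coding bp. Of 296 models with at most 300 coding bp, 35 were members (11.8%). The share was 2.94% of the 953 models over 300 and up to 600 bp, 1.49% of the 2482 over 600 and up to 1200 bp, 1.18% of the 3297 over 1200 and up to 2400 bp and 1.39% of the 1508 over 2400 bp. The next counts cover, for both groups, the models at 10 CPM or more in a wild type library. A gene high in 1 wild type library can pass on that library alone, whereas one high in 1 SRR1 mutant library cannot. The counts are therefore not an even comparison of the groups. Of the 296 shortest models, 0 had a quotient of at least 3 over the SRR1 mutant libraries and 50 (16.9%) over the wild type libraries. Of the 953 in the next class, 11 (1.15%) had such a quotient in the SRR1 mutant and 63 (6.61%) in the wild type, and of the 1508 longest, 2 (0.133%) in the SRR1 mutant and 26 (1.72%) in the wild type.

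**Figure D3:**
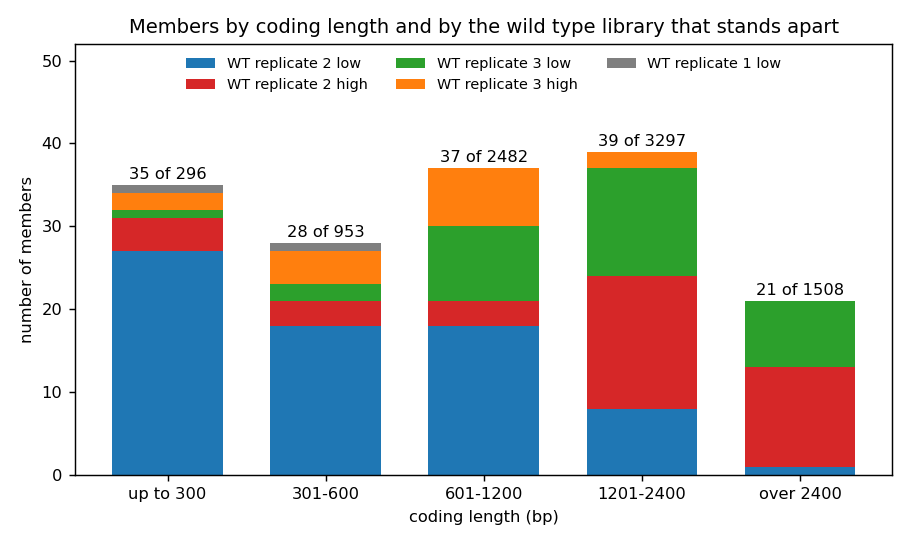
Number of members (y axis) in 5 classes of coding length in bp (x axis), stacked by the wild type library that stands apart, with the number of members and of all models at 10 CPM or more above each bar. Members with wild type replicate 2 low make up 27 of the 35 shortest, whereas replicate 2 high and replicate 3 low make up 20 of the 21 longest.

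The direction of the spread changed with coding length. Among the 63 members of at most 600 bp, wild type replicate 2 was the lowest library in 51 and replicate 3 the highest in 47. Among the 60 members over 1200 bp, replicate 2 was the highest library in 48 and replicate 3 the lowest in 48. The median coding length was 397.5 bp where replicate 2 stood apart as low and 1752 bp where it stood apart as high. After a smooth trend with coding length was removed from each library, 113 genes met the rule, 85 of them members. Among the 113 genes this order was reversed. Their median was 588 bp for the 55 with replicate 2 low and 310.5 bp for the 22 with replicate 2 high. Removing a fit on coding length alters such an order by itself, and the genes partly differ. What the order depends on was not tested. Among the 160 members, exceptions to the order were present at both ends. At most 600 bp was the length of 7 members with replicate 2 high, and 9 members with replicate 2 low had over 1200 bp. Across genes, Spearman's rho of coding length with the log2 ratio of wild type replicate 2 to replicate 3 was 0.549 over the 160 members and 0.338 over the 8536 models. For replicate 1 to replicate 3, the wild type pair with the strongest relation over all models, it was 0.516 over the members and 0.414 over the models, and for replicate 2 to replicate 1 it was 0.486 over the members and 0.089 over the models. For the ratio of SRR1 mutant replicate 1 to replicate 3, the mutant pair with the strongest such relation over all models, rho was 0.167 over the members and 0.263 over the models. The rule set the wild type libraries of a member far apart and its mutant libraries close together, so the rho values over the members are shaped by that choice. The genes of a library share its depth and preparation, so these values describe the libraries.

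The libraries also differed with coding length over all models. Over the 296 shortest models, the median level relative to the mutant mean was -0.30, -0.29 and -0.06 in wild type replicates 1, 2 and 3 on the log2 scale. Over the 1508 models beyond 2400 bp it was 0.01, 0.12 and -0.40. The corresponding medians of the SRR1 mutant libraries lay between -0.07 and 0.05 in all 5 length classes. The mean of these same libraries is the reference, so their medians lie close to it by construction. They are not an even comparison with the wild type medians. The smooth trend fitted to each library, as a log2 deviation from the mean of all 6, was 0.08, 0.16 and 0.11 in SRR1 mutant replicates 1, 2 and 3 and -0.10, -0.24 and -0.02 in wild type replicates 1, 2 and 3 at 300 bp. At 2400 bp it was 0.06, 0.05 and 0.03 in the SRR1 mutant and 0.02, 0.11 and -0.27 in the wild type. Wild type replicate 2 was thus the lowest library of the trend at the short end, and wild type replicate 3 the lowest at the long end. By the medians over the shortest models, wild type replicates 1 and 2 were nearly level, at -0.30 and -0.29. With the trend removed, 85 of the 113 genes that met the rule were members. Of the 72 members with replicate 2 low, 49 met the rule again, and of the 38 with replicate 2 high, 9 did. It was 15 of the 33 members with replicate 3 low and 10 of the 15 with replicate 3 high. RNA integrity and fragment size were not measured in the files, and their part in the spread was not tested.

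**Figure D4:**
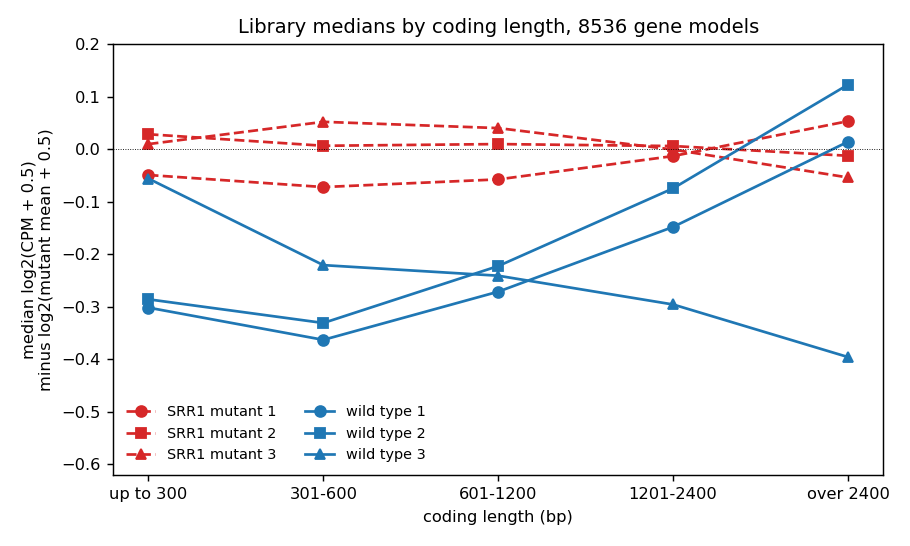
Median level of each library over 8536 gene models, as log2(CPM + 0.5) minus log2 of the mutant mean plus 0.5 (y axis), in 5 classes of coding length in bp (x axis); dashed red lines are the 3 SRR1 mutant libraries and solid blue lines the 3 wild type libraries. Wild type replicate 3 lies at -0.06 in the shortest class and at -0.40 in the longest, and replicate 2 at -0.29 and 0.12. The mutant mean is the reference, so the mutant lines lie close to it by construction.

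The SRR1 mutant held most members at a level inside the wild type range, in its upper part. Setting the lowest wild type library at 0 and the highest at 1 on the log2 scale, the mutant mean had a median place of 0.79, with quartiles at 0.52 and 0.95. It lay inside the wild type range for 130 members, above every wild type library for 30 and below every wild type library for none. All 3 mutant libraries lay above the middle wild type library in 92 members and below it in 34. The mutant mean was nearest to wild type replicate 1 in 88 members, to replicate 3 in 43 and to replicate 2 in 29. The rule asks for a wide wild type spread and similar means, so a place inside the wild type range was largely set by the choice of members. Replicate 1 was the highest library in only 15 members and the lowest in 9, which bears on the counts of the nearest library. The place was highest where replicate 2 was low, with a median of 0.92, and was 0.68 where replicate 3 was low, 0.54 where replicate 2 was high and 0.49 where replicate 3 was high. Where a low library stands apart, the middle one lies nearer to 1 by definition, and where a high one does, nearer to 0. With similar means required, this order of the classes was largely set by the choice of members.

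These places moved with the scaling. With column sums, the median log2 ratio of the mutant mean to the wild type mean was 0.17 over the 8536 models, and with TMM-scaled library sizes, which allow for a few strongly differing genes, it was -0.02. The mutant mean was above the wild type mean in 99 of the 160 members with column sums (61.9%) and in 86 with TMM (53.8%). Over the 8536 models the shares were 65.7% and 47.9%, so the members lay near the background. It was above every wild type library in 30 members with column sums and in 8 with TMM, and below every wild type library in 0 with column sums and in 2 with TMM. The median place was 0.69 with TMM, and the median of the members with replicate 2 low was 0.80.

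**Figure D5:**
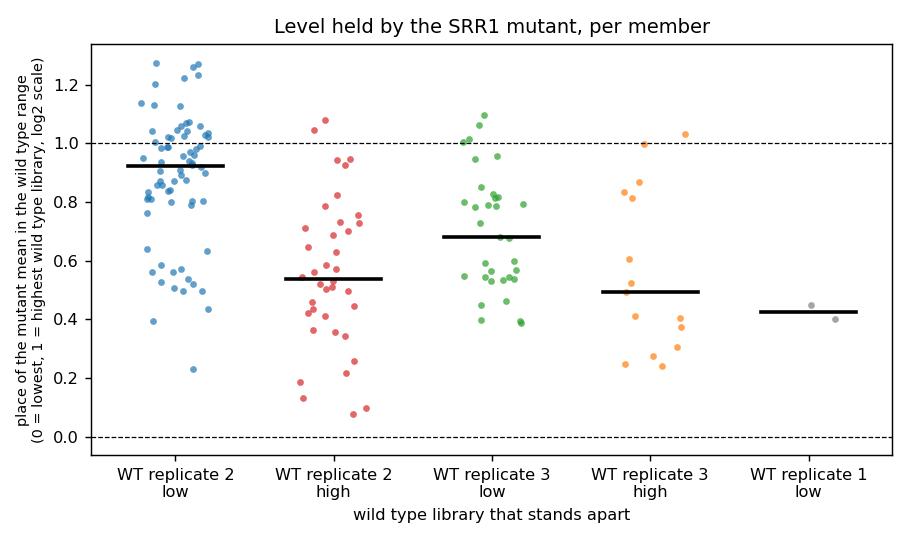
Place of the SRR1 mutant mean within the wild type range of each member (y axis; 0 is the lowest and 1 the highest wild type library, log2 scale), by the wild type library that stands apart (x axis), with 1 point per member and a black line at the median. The 72 members with replicate 2 low have a median of 0.92, and 23 of them lie above 1. The rule and the definition of the classes largely set the differences between the classes.

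The members covered a wide range of CPM, a scale that is not divided by length and so does not rank genes of different length by transcript number. The mean CPM of a member ranged from 2.88 to 3750 in the SRR1 mutant, with a median of 33.0, and from 5.68 to 2494 in the wild type, with a median of 25.04. Over the 8536 models the medians were 52.1 CPM in the SRR1 mutant and 46.5 CPM in the wild type. Together the members took 1.25, 1.19 and 1.31% of the read pairs in the SRR1 mutant libraries and 1.12, 0.938 and 1.15% in the wild type libraries. The shares of the mutant libraries lay above those of the wild type libraries. Without the member of the highest CPM they were 0.861, 0.889 and 0.877% in the SRR1 mutant and 0.765, 0.825 and 0.869% in the wild type, and then overlapped. The lowest wild type count of a member had a median of 208 read pairs, was under 100 pairs in 44 members and under 50 pairs in 13. Whether fewer cells of a type or less RNA per cell made a transcript low in a gill library cannot be told apart in bulk RNA.

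None of the 160 members was called between the SRR1 mutant and the wild type, where 10.2% of all 11683 tested genes were (edgeR quasi-likelihood test, Benjamini-Hochberg adjusted p under 0.05, two-sided, 3 libraries against 3). The rule limits the ratio of the means and requires a wide wild type spread, so this count follows from the choice of members. At an unadjusted edgeR p under 0.05 there were 5 members, where 26.3% of all tested genes passed, and DESeq2 called 2, where it called 13.2% of the genes it tested. The smallest edgeR adjusted p of a member was 0.0991. The log2 fold changes of the mutant over the wild type ran from -1.22 to 0.79 with a median of 0.04, and their median standard error was 0.375, against 0.233 over all tested genes. The 2 groups did not overlap in 12 members (7.50%), with all mutant libraries the higher ones, compared with 39.2% of the 8536 models; with TMM-scaled library sizes this held for 4 members, and 2 had all mutant libraries the lower ones; in either direction 34.5% of the models did not overlap with TMM. With 1 wild type library left out, edgeR called 32 of the 160 members without replicate 2, 14 without replicate 3 and 2 without replicate 1. The shares of all tested genes called were then 16.1%, 9.74% and 7.4%. The members were chosen for a wide wild type spread, which leaving out 1 of these libraries narrows, so nothing is drawn from these counts. Without SRR1 mutant replicates 1, 2 and 3 in turn, 0 members were called, where 5.19%, 4.52% and 4.69% of all tested genes were.

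Single-exon genes made up 27 of the 160 members (16.9%) and 6.17% of the 8536 models. The difference lay among short genes: 15 of the 35 members of at most 300 bp had 1 coding exon (42.9%), against 30.1% of the models of that length, and 9 of the 28 members over 300 and up to 600 bp (32.1%), against 10.5%. Among members over 1200 bp the share was 3.33%, against 4.08%. On the plus strand lay 60 members (37.5%) and 50.4% of the models. No member overlapped the coding span of another gene model, whereas 20 of the 8536 models overlapped one on the other strand; untranslated regions are not in the table.

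The members were spread over scaffolds 1 to 13, with 1.03% of the models on scaffold_6 and 3.19% of those on scaffold_11 as the lowest and highest shares, and there was none on the small scaffolds beyond these. Neighbouring models were both members in 5 pairs, and no run held 3 members. On scaffold_4, a gene of 186 coding bp from 1435097 to 1435282 had 27.2, 24.3 and 23.4 CPM in the SRR1 mutant and 25.6, 4.52 and 21.6 CPM in the wild type. The next model, of 420 coding bp from 1435560 to 1436003 on the other strand, had 14.7, 13.7 and 18.6 CPM in the SRR1 mutant and 12.1, 1.84 and 14.4 CPM in the wild type. Both were low in wild type replicate 2 alone. Another pair, on scaffold_2, held the gene of 138 coding bp given above and a single-exon gene of 1581 bp from 3783923 to 3785503. The longer one had 82.3, 86.1 and 85.9 CPM in the SRR1 mutant and 74.96, 210 and 68.9 CPM in the wild type, so both genes of the pair were high in replicate 2. Pairs on scaffold_8 from 1697347 to 1700756 and on scaffold_4 from 2185932 to 2189530 were low in replicate 3 in both genes. The pair on scaffold_10 joined CopciAB_444907.T0, high in replicate 3, with a gene of 3612 coding bp from 2009063 to 2012732 in which replicate 3 was low.

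For 1 member another model had the same lengths of all 9 coding exons. It lies on scaffold_7 from 2525237 to 2530464 and had 6.93, 7.54 and 9.06 CPM in the SRR1 mutant and 7.06, 12.9 and 3.61 CPM in the wild type. The second model lies from 2566225 to 2571450 on the same scaffold and was not a member, with 22.8, 27.4 and 19.7 CPM in the SRR1 mutant and 23.0, 25.7 and 15.9 CPM in the wild type. Read pairs that map to more than 1 place were counted. No sequence was compared, so whether these models share read pairs is not known, and if they do, neither has a certain value.

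The limits of the rule cut through continuous values. The member closest to the lower limit of the wild type quotient, on scaffold_4 from 3686805 to 3688252, had 37.1, 41.4 and 39.99 CPM in the SRR1 mutant and 15.9, 36.1 and 11.7 CPM in the wild type. The nearest gene outside it had 8.67, 7.15 and 6.68 CPM in the SRR1 mutant and 3.775, 12.3 and 4.46 CPM in the wild type, a quotient of 2.997. At the upper limit of the mutant quotient, the last member had a quotient of 1.59 and the first gene outside one of 1.61. The lowest maximum of a member in the wild type was 10.3 CPM, and the highest among genes failing only that limit was 9.765 CPM. For the ratio of the wild type mean to the mutant mean, the outermost members had 1.92 and 0.522, and the nearest genes outside had 2.03 and 0.490.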

How the data were processed

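The authors deposited 1 table of raw counts of read pairs per gene model, made with featureCounts 2.0.1 over coding exons, per the file headers. The command sets no strand, keeps multi-mapping reads, drops chimeric pairs and asks for both ends mapped and a fragment of at least 40 bp. The submitters' processing notes name STAR 2.6.1 as the aligner. Columns were assigned to samples by their descriptions and groups by their titles.

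CPM used column sums. The members and lists were chosen with earlier results of these data known. Calls came from edgeR 4.0.16 (quasi-likelihood, TMM, genotype only) in R 4.3.3 over 11683 genes passing its expression filter, and the step was tested on simulated data. The members described singly were, for each wild type library that stood apart, the 3 with the largest wild type quotient and the 1 with the highest mutant mean. Neighbouring models and models with the same coding exon lengths were added by position. Alternatives were DESeq2 1.42.0, other scalings, pseudocounts and limits, removal of a lowess trend (span 0.3, statsmodels 0.14.6, Python 3.11.15) of log2(CPM + 0.5) deviations on log2 coding length, a replicate block and the omission of each library in turn. No sequence is shown, because no genome of the files' build was used here.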

Additional observations from a re-analysis of the deposited data

How the results depend on the processing

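The number of genes meeting the rule was 388 with a wild type quotient of at least 2.5 and 40 with one of at least 4, and 10 to 190 with 1 library left out. Of the 160 members, 40 met the rule with a quotient of at least 4, 85 after the length trend was removed, and 10 to 160 with 1 library left out. With the other limits, pseudocounts and scalings the number of genes was 123 to 194 and the members found again 109 to 160. DESeq2 called 2 members; with 1 library left out edgeR called 0 to 32 members and 533 to 1896 genes in all. With the replicate number as a block, a pairing the labels do not give, edgeR called 928 genes and 0 members. Deviations from the group means of same-numbered libraries correlated at 0.079, -0.053 and -0.037, and not every library correlated best with its own number. Where replicate 1 stood apart as low, the median coding length was 720 bp over the 9 members with replicate 1 lowest, a choice made after the data were seen, against 346.5 bp over 2. Where replicate 3 stood apart as high, it was 417 bp over the 77 members with replicate 3 highest, against 720 bp over 15; the larger set takes in genes whose low library is farther off. With TMM-scaled library sizes, 45 members had replicate 2 high and 26 had replicate 3 low. Values under 1 CPM rest on fewer than 25 read pairs.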
